A study of Mus musculus with 8 samples.

Results

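The genes described here are 37 markers of macrophages, monocytes and dendritic cells, the mononuclear phagocytes, in the mouse esophagus. They were chosen by name, and each of the 37 matched 1 of the 49315 gene identifiers in the tables. Whole esophagus was taken on day 14 from wild-type mice, 5 control libraries from animals given no treatment and 3 from animals that drank water with 0.5% sodium dodecyl sulfate (SDS), a household detergent. The labels name no strain, sex or age, and no label names the animal behind each library, and the p-values therefore reflect the spread among the libraries alone, which may in part be technical. The protocol text speaks both of esophagus homogenates and of cell pellets. The squamous keratins Krt4 and Krt13 and the muscle actin Acta1 were abundant in every library.

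Mononuclear phagocytes take up dead cells, microbes and antigen. Resident macrophages depend on the receptor Csf1r, monocytes enter inflamed tissue from blood, and dendritic cells develop under the receptor Flt3 and carry antigen to T cells. In squamous epithelium a further population, the Langerhans cells, sits among the keratinocytes.

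Totals ran from 22033866 to 29802362 counts per library. The SDS libraries differed among themselves before any test. Depth-scaled counts (CPM, with totals adjusted for library composition) were above every control for 31 of the 36 tested members in SDS library 1 (19.6% of all tested genes) and for 33 in SDS library 2 (24.5% of all tested genes). In SDS library 3 this held for 5 members (26.5% of all tested genes), and 7 members lay below every control (28.4% of all tested genes). In SDS library 1 only Gpnmb lay below every control (19.3% of all tested genes), and in SDS library 2 no member did (24%). Relative to the control mean, the median member stood at 2.06-fold in SDS library 1, 4.54-fold in SDS library 2 and 0.901-fold in SDS library 3. SDS library 2 exceeded SDS library 1 by a median of 2.05-fold.

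**Figure D1:**
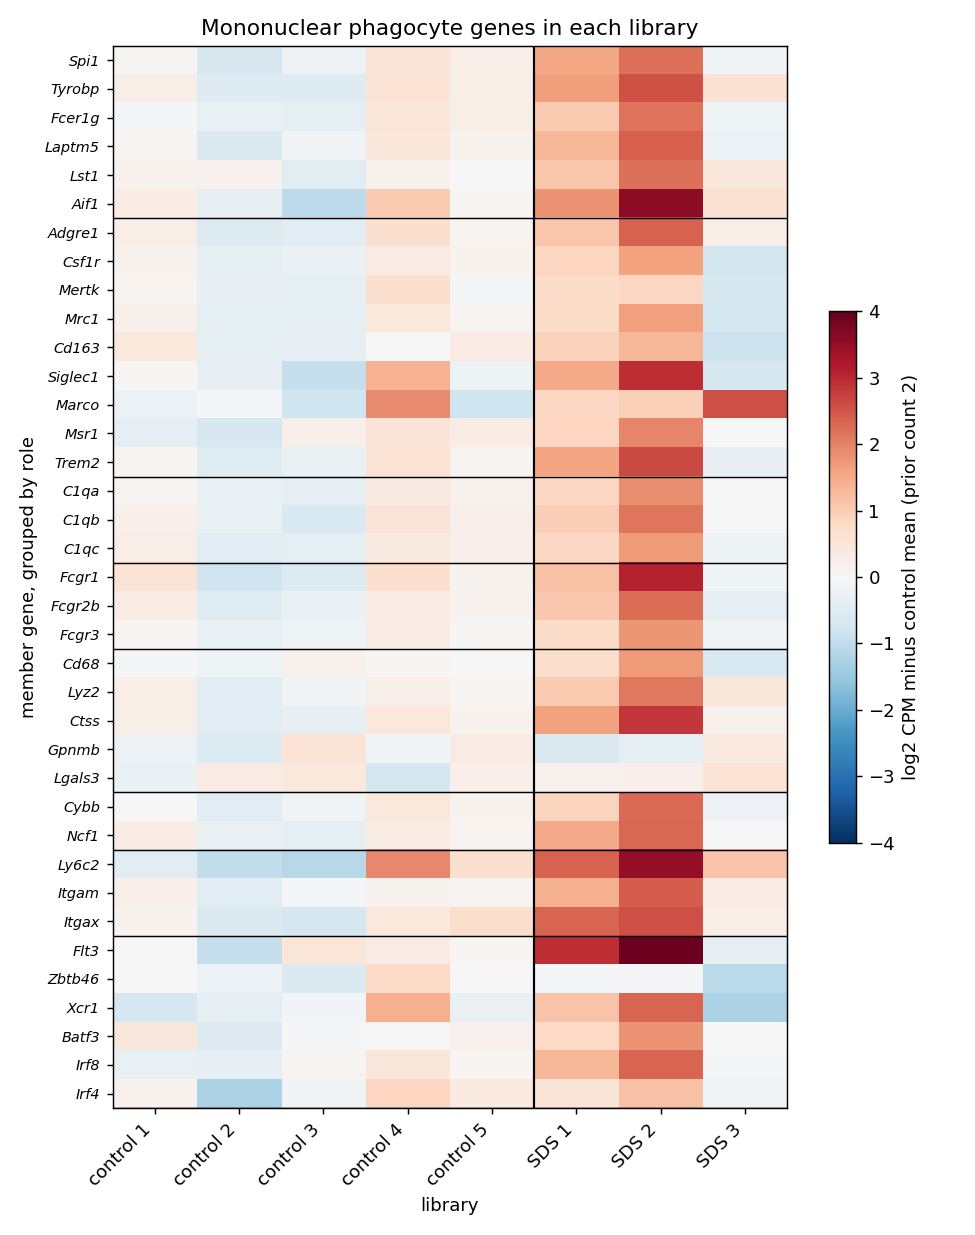
Log2 CPM of each of the 37 genes (rows, grouped by role) in each library (columns), minus the mean of the 5 controls, with a prior count of 2; red is above and blue below the control mean. SDS libraries 1 and 2 are red in most rows, with Gpnmb, Lgals3 and Zbtb46 faint or blue, and SDS library 3 resembles the controls in most rows.

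The comparison of SDS with control asks how the detergent affects the esophagus, its inflammation included. With all 8 libraries edgeR's quasi-likelihood test called no member at 0.05 after Benjamini-Hochberg adjustment over 17179 genes. It called 1.05% of all tested genes, 0.623% higher and 0.425% lower. At an unadjusted p under 0.05 there were 26 members higher and 0 lower, against 9.98% of all tested genes higher. DESeq2 called 15 higher (5.21% of all genes tested), limma-voom called 0 (0.39%) and limma-voom with sample quality weights called 22 (6.58%). The log2 fold change was above 0 for 34 of 36 members, against 49.3% of all tested genes, and its median was 1.32, against -0.005 over all tested genes.

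Without SDS library 3, 26 of 36 members were called higher and 0 lower, where 4.98% of all tested genes were called higher, and the median log2 fold change was 1.73. That fit left out the SDS library in which most members were not raised, and no label gives a ground for doing so. Calls without SDS library 3, here and below, therefore describe SDS libraries 1 and 2 alone and not the SDS group. Without SDS library 2 no member was called (0.0228% of all tested genes were) and the median was 0.54. Without both SDS library 3 and control library 4, a fit added after the data were seen, 32 members were called higher (7.5%). The count therefore turned on SDS library 3 and, with all libraries in the fit, on the method. No member was called without SDS library 1 (0.108% of all tested genes higher), without control library 1 (0.0236%), 2 (0.0352%), 3 (0.076%), 4 (0.465%) or 5 (0.0529%), or with other size factors (0.704%), no filter (0.507%) or a filter at 1 CPM (0.609%). Group ranges did not overlap for 4 members, Tyrobp, Lst1, Lyz2 and Itgam, all higher in SDS. Of all tested genes 6.49% were higher without overlap. In bulk tissue, more cells of a type and more RNA per cell cannot be told apart.

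**Figure D2:**
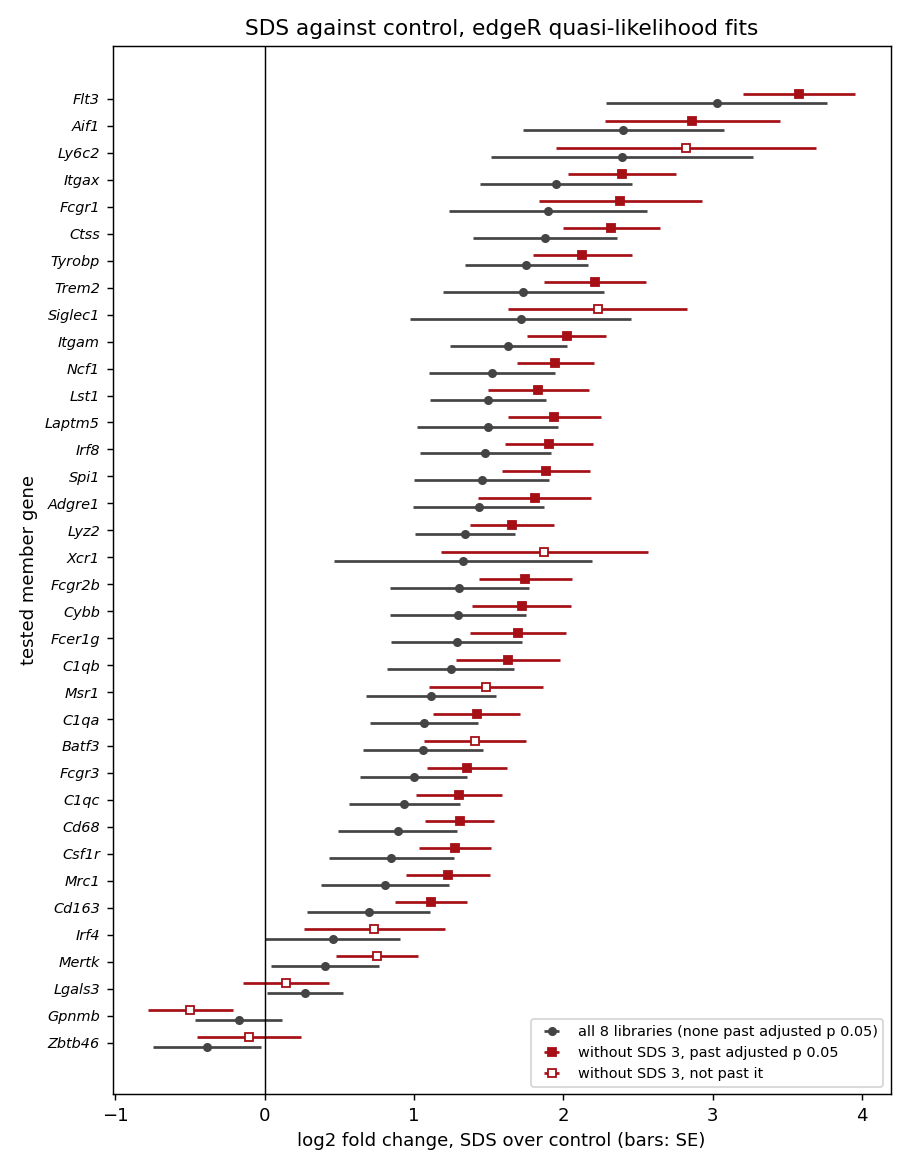
Log2 fold change of SDS over control with its SE (bars) for the 36 tested members, ordered by the value from all 8 libraries. Grey points use all libraries and none passes; squares leave out SDS library 3, and the 26 filled squares pass an adjusted p of 0.05.

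In the controls the most abundant member per length was Lyz2, the secreted lysozyme of macrophages, at 152 CPM per kilobase of exon. The galectin Lgals3 followed at 112, then the complement chains C1qa at 46.4, C1qb at 33.7 and C1qc at 20.3 and the lysosomal protease Ctss at 17.8 CPM per kilobase. The surface receptors of resident macrophages were lower, with Csf1r at 10.2, Cd163 at 6.62, Mrc1 at 4.46 and Adgre1 at 3.56 CPM per kilobase. Dendritic cell genes were in the lower part of the order. Irf4 stood at 0.935, Batf3 at 0.904, Irf8 at 0.825, Zbtb46 at 0.524, Flt3 at 0.104 and Xcr1 at 0.0565 CPM per kilobase. Some macrophage genes were as low, with Aif1 at 0.62, Msr1 at 0.523, Fcgr1 at 0.517, Trem2 at 0.503 and Siglec1 at 0.32. Marco, a scavenger receptor of some macrophages, was lowest at 0.0506. It had 14 counts over the 5 controls, 12 of them in control library 4, and 26 over the SDS libraries, 17 of them in SDS library 3, and did not pass the filter on low counts.

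Controls were not alike. Control library 4 was the highest control for 26 of the 36 tested members, and control library 2 or 3 was the lowest for 34. The adipocyte list of 5 genes, a gauge of attached fat, also had its extremes there: its summed level was 4319 CPM in control library 4 and 107 and 36.2 CPM in control libraries 2 and 3. The part of attached fat in the spread of the member genes was not tested.

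Spi1 encodes PU.1, the transcription factor that macrophages and dendritic cells require. It measured 6.82, 4.14, 5.72, 9.32 and 7.89 CPM in control libraries 1 to 5 and 19.1, 30.6 and 6.001 CPM in SDS libraries 1 to 3. SDS libraries 1 and 2 stood clear of the controls and SDS library 3 lay among them. Its log2 fold change was 1.45 ± 0.45 (SE, adjusted p = 0.139), or 1.88 without SDS library 3.

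PU.1 binds a purine-rich sequence known as the PU box, GAGGAA. Promoter sequences from RefSeq (build GRCm38.p6) were matched by symbol for 29 of the 37 members and searched over the 250 bases before the annotated start. The PU box was found on either strand for 15 of the 29 genes (51.7%), and for 25.9% of the 27025 genes with a promoter in the same table. The longer form GAGGAAGT, whose matches all lie within PU box matches, was found for 2 members (6.9%, against 2.79% of all genes), and the Ets-IRF composite element for 1 member, Fcgr2b (3.45%, against 2.68%). The AP-1 and BATF motif TGANTCA was found for 5 members, Cd68, Cybb, Itgax, Trem2 and Zbtb46 (17.2%, against 7.82%).

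The stretches below show members of different roles with a PU box before the start, and the AP-1 motif of Itgax, each read 5′ to 3′ in the direction of the gene, with the motif or its reverse complement in capitals. Itgam is at chr7:128062536-128062639 on the plus strand, C1qb at chr4:136886205-136886250 on the minus strand and Fcgr1 at chr3:96293999-96294044 on the minus strand. Ctss is at chr3:95526602-95526647, Trem2 at chr17:48346341-48346386 and Itgax at chr7:128129474-128129520, all on the plus strand.
Itgam: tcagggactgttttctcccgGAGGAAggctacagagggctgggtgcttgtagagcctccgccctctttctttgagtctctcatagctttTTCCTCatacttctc
C1qb: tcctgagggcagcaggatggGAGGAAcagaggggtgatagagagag
Fcgr1: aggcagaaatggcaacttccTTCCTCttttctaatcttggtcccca
Ctss: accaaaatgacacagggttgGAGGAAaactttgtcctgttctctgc
Trem2: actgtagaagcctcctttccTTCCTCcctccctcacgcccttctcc
Itgax: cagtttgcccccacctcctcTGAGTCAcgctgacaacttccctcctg
The Itgam stretch holds the motif at 2 positions, once in each direction. Tested members with a PU box in the window had a median log2 fold change of 1.37 (14 genes, 0.46 to 2.40) and those without one 1.30 (14 genes, -0.39 to 3.02). A match describes letters in the window and is not a measured binding site.

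Tyrobp (DAP12) and Fcer1g are the adapters that carry the activating signal of many myeloid receptors. Tyrobp measured 9.04, 5.29, 5.28, 11.1 and 8.99 CPM in the controls and 24.4, 44.7 and 11.4 CPM in SDS libraries 1 to 3. Each SDS library exceeded each control, by a narrow margin in SDS library 3. The log2 fold change was 1.75 ± 0.41 (SE, adjusted p = 0.0792). Fcer1g, which also serves IgE and IgG receptors, had a log2 fold change of 1.29 ± 0.44, and its SDS library 3 lay within the control range.

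Laptm5, a lysosomal membrane protein of blood cells, ranged from 12.2 to 25.4 CPM in controls and stood at 46.5, 97.0 and 15.5 CPM in SDS libraries 1 to 3 (log2 fold change 1.49 ± 0.47). The small genes Lst1 and Aif1, neighbours on mouse chromosome 17 (Aif1 from 35170991 to 35176068 and Lst1 from 35185095 to 35188439), had log2 fold changes of 1.496 ± 0.390 and 2.40 ± 0.67. Aif1, which encodes the macrophage protein IBA1, rested on low counts, with 131 counts over the 5 controls and 79, 306 and 32 in SDS libraries 1 to 3. All 6 genes of this group were called without SDS library 3 (4.98% of all tested genes were called higher).

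The 8 tested surface receptors of macrophages had log2 fold changes from 0.40 to 1.73, with a median of 0.98. Csf1r, the receptor for the growth factors CSF1 and IL-34, measured 54.3, 38.4, 40.4, 61.4 and 53.5 CPM in the controls and 88.2, 150.1 and 29.6 CPM in the SDS libraries. SDS libraries 1 and 2 lay above every control and SDS library 3 below every control. The log2 fold change was 0.85 ± 0.42 (SE, adjusted p = 0.321). It was 1.28 without SDS library 3 and was then called (adjusted p = 0.0237); over 17 alternatives the adjusted p ran from 0.0103 to 0.825.

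Cd163, the receptor for haemoglobin-haptoglobin complexes, was likewise above every control in SDS libraries 1 and 2 and below every control in SDS library 3. It measured 47.0, 26.6, 28.0, 35.3 and 44.0 CPM in the controls and 67.0, 88.8 and 19.9 CPM in the SDS libraries (log2 fold change 0.70 ± 0.41). Mrc1, the mannose receptor, and Mertk, a receptor for dying cells, again had SDS library 3 below every control, at 17.0 and 3.54 CPM, with log2 fold changes of 0.81 ± 0.43 and 0.40 ± 0.36. The fibroblast list of 6 genes was also lowest in SDS library 3, with a summed level of 998 CPM against 2027 to 2655 CPM in controls. It was highest in SDS library 2, at 6240 CPM. The collagens Col1a1, Col1a2 and Col3a1 moved most. Col3a1 stood at 3165 and 153 CPM in SDS libraries 2 and 3 against 649 to 1037 CPM in controls. Dcn moved less, at 804 and 561 CPM against 580 to 715 CPM. The part of the fibroblast list in the receptor values was not tested.

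Adgre1, which encodes the F4/80 antigen, stood in SDS library 3 at 13.2 CPM, within the control range of 7.55 to 17.2 CPM, and reached 24.1 and 56.3 CPM in SDS libraries 1 and 2 (log2 fold change 1.43 ± 0.44). Trem2, a lipid receptor that signals through Tyrobp, measured 2.63, 1.68, 1.99, 3.54 and 2.59 CPM in the controls and 7.42, 15.5 and 1.92 CPM in the SDS libraries. Its log2 fold change was 1.73 ± 0.54. The scavenger receptor Msr1 (1.11 ± 0.44) and the sialic acid receptor Siglec1 (1.71 ± 0.74) were not called without SDS library 3 either. Siglec1 was raised in control library 4, at 5.20 CPM, close to the 5.73 CPM of SDS library 1.

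**Figure D3:**
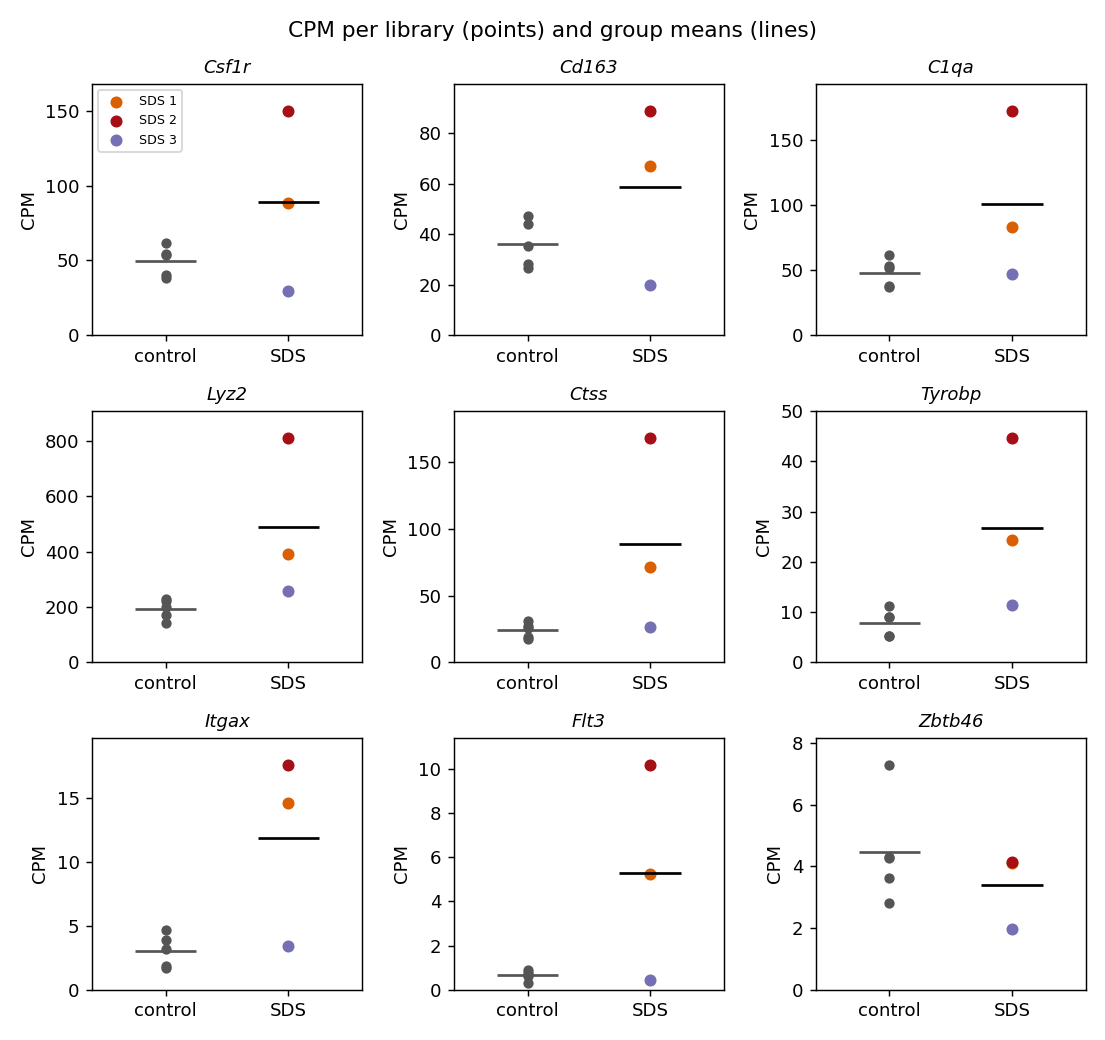
CPM of 9 members in each library (points; linear axes from 0) with the group means (lines). SDS library 3 lies below the controls for Csf1r, Cd163 and Zbtb46 and among or just above them in the other panels. It lies below SDS libraries 1 and 2 in every panel.

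The 3 chains of C1q, the recognition unit of the classical complement pathway, are made largely by macrophages in tissues and lie side by side on chromosome 4 of mm10, C1qb from 136880129 to 136886187, C1qc from 136889804 to 136893065 and C1qa from 136895917 to 136898803. C1qa measured 51.4, 38.1, 37.1, 61.4 and 53.3 CPM in the controls and 83.2, 172.7 and 47.1 CPM in the SDS libraries. The log2 fold changes were 1.07 ± 0.36 for C1qa, 1.246 ± 0.424 for C1qb and 0.94 ± 0.37 for C1qc. For each chain SDS libraries 1 and 2 were above all controls and SDS library 3 within their range. All 3 chains were called without SDS library 3 (4.98% of all tested genes were called higher).

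Receptors for the Fc part of IgG lead immune complexes into phagocytes. Fcgr2b is the inhibitory receptor and Fcgr3 an activating one, and both lie with Fcer1g in one stretch of chromosome 1, from 170958617 to 171234365. Fcgr2b ranged from 9.57 to 16.5 CPM in controls and stood at 28.5, 62.5 and 10.2 CPM in SDS libraries 1 to 3 (log2 fold change 1.30 ± 0.47). The activating Fcgr3 had 1.00 ± 0.36. The high-affinity receptor Fcgr1, on chromosome 3, measured 1.84, 0.674, 0.812, 1.99 and 1.37 CPM in the controls and 2.87, 11.1 and 1.125 CPM in the SDS libraries, so that SDS library 2 carried most of its log2 fold change of 1.90 ± 0.66. The related receptor Fcgr4, no member and chosen after its values were seen, ranged from 0.102 to 0.473 CPM in controls, stood at 1.22, 6.001 and 0.125 CPM in SDS libraries 1 to 3. It was not called with all libraries and was called without SDS library 3 (log2 fold change 3.82).

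Lysosomal and secreted proteins fell into separate patterns. Lyz2 measured 227, 142, 171, 222 and 199 CPM in the controls and 391, 810 and 259 CPM in the SDS libraries. All 3 SDS libraries exceeded all controls, and the log2 fold change was 1.34 ± 0.33 (SE, adjusted p = 0.087). Ctss, the cathepsin that trims the invariant chain of MHC class II, measured 27.5, 17.3, 18.8, 31.3 and 25.95 CPM in the controls and 71.5, 168 and 26.3 CPM in the SDS libraries, a log2 fold change of 1.88 ± 0.48. Cd68, a glycoprotein of macrophage lysosomes, ranged from 11.4 to 14.6 CPM in controls and stood at 21.1, 42.2 and 8.501 CPM in SDS libraries 1 to 3 (0.89 ± 0.40).

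Lgals3 and Gpnmb did not share this pattern. Lgals3, a galectin that squamous epithelium also makes in quantity, measured 165, 253, 268.5, 123 and 232 CPM in the controls and 226, 232 and 295 CPM in the SDS libraries (log2 fold change 0.27 ± 0.26). Gpnmb, a glycoprotein of lysosomes and melanosomes, measured 54.4, 44.5, 94.1, 59.5 and 81.5 CPM in the controls and 43.4, 50.6 and 83.6 CPM in the SDS libraries (-0.17 ± 0.29). For Lgals3 control library 4 was lowest and SDS library 3 highest. The list of 5 squamous epithelium genes had the same extremes, with a summed level of 39800 CPM in control library 4 and 147600 CPM in SDS library 3, and its part was not tested.

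Cybb and Ncf1 encode the membrane catalytic subunit and a cytosolic organizer of the phagocyte NADPH oxidase, which makes superoxide. Cybb ranged from 9.91 to 18.03 CPM in controls and stood at 25.1, 64.1 and 11.3 CPM in SDS libraries 1 to 3 (log2 fold change 1.30 ± 0.46). Ncf1 measured 11.4, 7.46, 6.94, 11.4 and 9.83 CPM in the controls and 26.7, 45.3 and 9.09 CPM in the SDS libraries (1.52 ± 0.42). Ncf1 overlaps Gtf2ird2 over 4303 bp on the opposite strand, and whether counting used the strand is not given in the sources used here. The same limit holds for Fcgr2b (3175 bp), Mertk (2435 bp), Flt3 (936 bp) and Csf1r (871 bp), which also overlap a gene on the opposite strand. Of the partner subunits, Cyba had a log2 fold change of 0.76 ± 0.36 and was not called.

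The integrin chains Itgam (CD11b) and Itgax (CD11c) are neighbours on chromosome 7, Itgam from 128062640 to 128118491 and Itgax from 128129547 to 128150657. Itgam marks monocytes, macrophages and neutrophils. It measured 7.16, 4.57, 6.05, 6.85 and 6.75 CPM in the controls and 16.9, 33.8 and 7.71 CPM in the SDS libraries, without overlap between the groups (log2 fold change 1.63 ± 0.39, adjusted p = 0.0809). Itgax, a marker of dendritic cells and some macrophages, measured 3.17, 1.88, 1.73, 3.88 and 4.69 CPM in the controls and 14.6, 17.6 and 3.46 CPM in the SDS libraries (1.95 ± 0.51). SDS libraries 1 and 2 were nearly level for Itgax, 1.21-fold apart, whereas they were 2.00-fold apart for Itgam. The monocyte antigen Ly6c2 had 38 counts over the 5 controls, 25 of them in control library 4, against 30, 78 and 11 in SDS libraries 1 to 3. It was not called with or without SDS library 3. Gm49368, a transcript model that overlaps Itgam on the same strand, had 0 to 7 counts per library.

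Among the dendritic cell genes the receptor kinase Flt3 had the largest log2 fold change of the tested members, 3.02 ± 0.74 (SE, adjusted p = 0.0857). It measured 0.614, 0.289, 0.886, 0.776 and 0.648 CPM in the controls and 5.26, 10.2 and 0.458 CPM in the SDS libraries. The first and second SDS libraries held 134 and 290 counts, and the other 6 libraries 6 to 24 each. Without SDS library 3 the value was 3.58 and called (adjusted p = 0.00264), and over 16 alternatives the adjusted p ran from 0.00179 to 0.361.

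The lineage factor Irf8, required for type 1 dendritic cells, measured 4.60, 4.47, 6.16, 7.80 and 6.06 CPM in the controls and 14.3, 28.8 and 5.50 CPM in the SDS libraries (1.48 ± 0.44). Gm20388, a model on the same strand that spans all of Irf8, had 0 counts in every library. Batf3, which acts with Irf8, ranged from 0.962 to 1.94 CPM in controls and stood at 2.51, 5.12 and 1.42 CPM in SDS libraries 1 to 3 (1.06 ± 0.40). Xcr1, the chemokine receptor of type 1 dendritic cells, had 3, 3, 5, 20 and 4 counts in the controls and 14, 38 and 1 in SDS libraries 1 to 3. Of this group Flt3 and Irf8 were called without SDS library 3, and Xcr1, Batf3, Irf4 and Zbtb46 were not.

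Zbtb46, a transcription factor of classical dendritic cells that endothelium also expresses, measured 4.26, 3.61, 2.81, 7.29 and 4.31 CPM in the controls and 4.12, 4.14 and 1.96 CPM in the SDS libraries. SDS libraries 1 and 2 lay within the control range and SDS library 3 below it (log2 fold change -0.39 ± 0.36). The list of 4 endothelium genes was likewise highest in control library 4, with a summed level of 187 CPM, and lowest in SDS library 3, at 77.2 CPM; its part was not tested. Irf4, a factor of type 2 dendritic cells and of lymphocytes, had a log2 fold change of 0.46 ± 0.45.

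Members were also set against Ptprc (CD45), a membrane phosphatase of nearly all leukocytes. Ptprc measured 13.7, 7.07, 9.56, 15.3 and 10.6 CPM in the controls and 35.7, 76.6 and 9.04 CPM in the SDS libraries (log2 fold change 1.84 ± 0.54). It was not called with all libraries and was called without SDS library 3 (2.33). In SDS library 1 the reads of a member per Ptprc read lay below every control for 23 of 36 members (90.8% of all tested genes), and in SDS library 2 for 25 of 36 (96% of all tested genes), since Ptprc itself stood higher in both. In SDS library 3 they lay below every control for 6 of 36 (14.2% of all tested genes) and above every control for 7 (18%).

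Relative to the control median, Csf1r per Ptprc read stood at 0.584, 0.464 and 0.773 in SDS libraries 1 to 3, Cd163 at 0.549, 0.339 and 0.644, and C1qa at 0.580, 0.562 and 1.30. Ctss, at 0.978 and 1.07, and Trem2, at 0.896 and 0.874, lay within the control range in the first and second SDS libraries. Flt3 was above every control in SDS libraries 1 and 2, at 2.90 and 2.62 times the control median, where 0.873% and 0.489% of all tested genes lay above every control in those libraries. Aif1 was above every control in SDS libraries 2 and 3, and Fcgr1 in SDS library 2. These ratios were not tested.

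**Figure D4:**
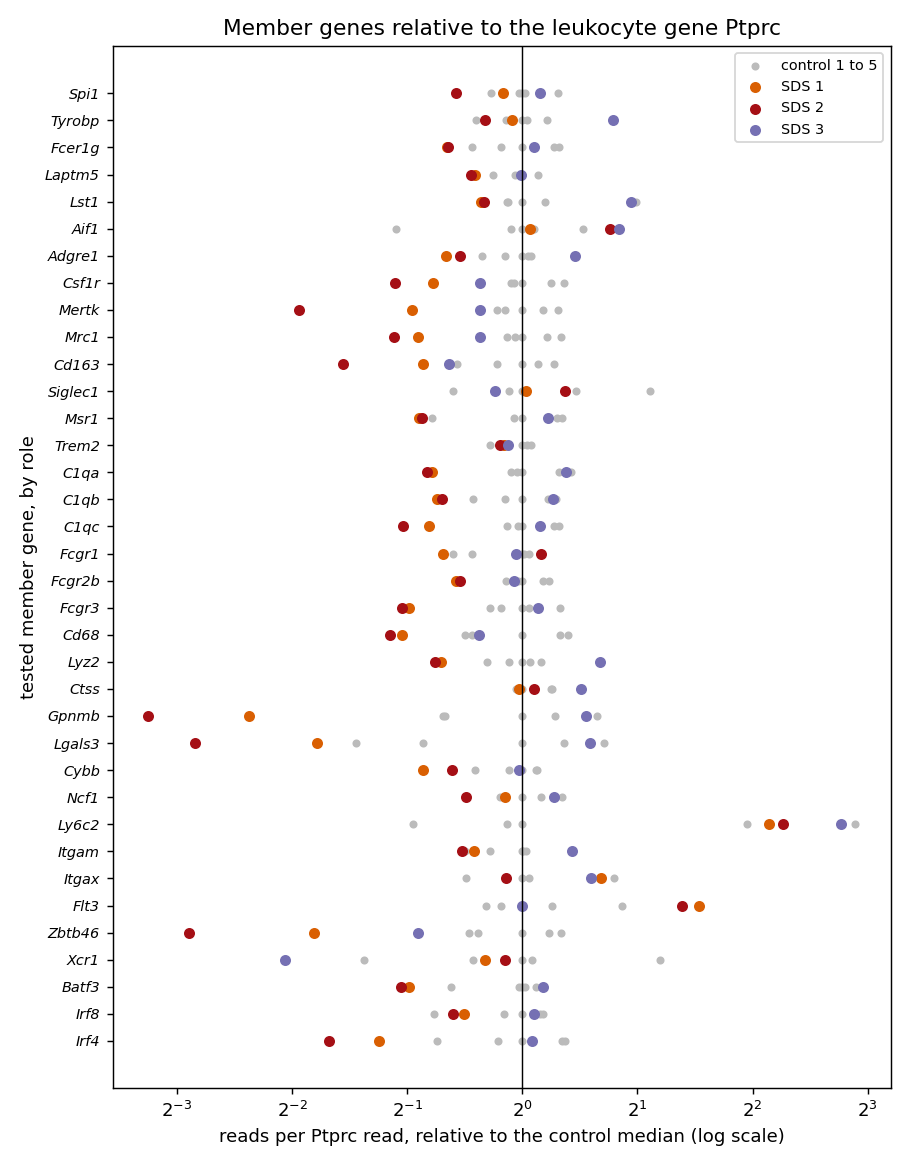
Reads of each tested member per read of Ptprc, relative to the median of the 5 controls (log axis); grey points are controls and coloured points the SDS libraries. Csf1r, Mrc1, Cd163 and the C1q chains lie left of the controls in SDS libraries 1 and 2, and Flt3 lies right of them. Of all tested genes 90.8% lay below every control in SDS library 1 and 96% in SDS library 2.

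Other genes of these pathways came from lists of ligands, receptors and partners. Of 50 such genes 48 were tested, 1 was called higher with all libraries and 0 lower, and 24 were called higher without SDS library 3 (4.98% of all tested genes were). The called gene was Cd207, the langerin of Langerhans cells, at 3.59 ± 0.45 (adjusted p = 0.024). Its controls ranged from 0.192 to 0.991 CPM and SDS libraries 1 to 3 stood at 10.4, 5.93 and 4.13 CPM, so that SDS library 3 was above every control too. The call was lost without control library 1, 2, 3 or 5 or SDS library 2, with log2 fold changes of 3.39 to 3.88 in those fits.

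Among 8 growth factors and chemokines, 6 were tested and 0 called with or without SDS library 3 (0.623% and 4.98% of all tested genes were called higher). Il34, the Csf1r ligand that keratinocytes make and Langerhans cells need, measured 10.6, 16.2, 15.98, 8.17 and 13.0 CPM in the controls and 27.5, 24.0 and 19.9 CPM in the SDS libraries. All 3 SDS libraries exceeded all controls (log2 fold change 0.90 ± 0.23, adjusted p = 0.0935). The other Csf1r ligand, Csf1, measured 20.2 to 35.0 CPM in controls and 30.9, 42.9 and 12.3 CPM in the SDS libraries, with a log2 fold change of 0.01 ± 0.35. Csf2 had 2 counts over the controls and 2 over the SDS libraries, below the floor of 3 counts per library, and the monocyte chemokine Ccl2 had 0.51 ± 0.56.

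All 5 receptors for these ligands were called without SDS library 3 (4.98% of all tested genes were called higher), and none with it (0.623%). Ccr2, which draws monocytes to tissue, measured 31.9, 12.1, 14.2, 24.9 and 19.7 CPM in the controls and 41.0, 123.5 and 10.5 CPM in the SDS libraries (1.505 ± 0.635). Cx3cr1 had a log2 fold change of 1.41 ± 0.69 and Csf2rb2, chosen after its values were seen, 1.55 ± 0.40. Below the adapters, 6 of 9 signalling genes were called without SDS library 3 (4.98% of all tested genes were called higher). The kinase Fgr, also chosen after its values were seen, had 2.76 ± 0.70 with all libraries.

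Of the other macrophage and monocyte genes 4 of 13 were called without SDS library 3 (4.98% of all tested genes were called higher). The endotoxin receptor Cd14 had 0.91 ± 0.45 and was not called without SDS library 3. Of the other dendritic cell genes, Ccr7, the receptor with which mature dendritic cells and T cells travel to lymph nodes, ranged from 0.0481 to 0.273 CPM in controls and stood at 2.04, 4.98 and 0.458 CPM in SDS libraries 1 to 3; it was chosen after its values were seen. Its log2 fold change was 3.92 ± 0.74 (adjusted p = 0.0507). The dendritic cell chemokine Ccl22 had 3.56 ± 0.85 (adjusted p = 0.08). It measured 4.04, 4.42 and 0.208 CPM in SDS libraries 1 to 3 against 0.0481 to 0.5115 CPM in controls. The controls held only 33 Ccl22 counts together, and SDS library 3 lay within their range. Ccr7 and Ccl22 were both among the 4 of 9 genes of this list called without SDS library 3 (4.98% of all tested genes were called higher).

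Summed levels of neutrophil, T cell and eosinophil markers were, like most members, higher in SDS libraries 1 and 2 than in SDS library 3. Single genes of these lists did not all follow. The neutrophil list of 9 genes had a summed level of 50.8 to 63.1 CPM in controls and 6223, 5905 and 214 CPM in SDS libraries 1 to 3. Most of that sum was S100a8 and S100a9, which keratinocytes also make. These were the 2 called higher of 7 tested (0.623% of all tested genes were called higher), with 0 lower. Csf3r, the receptor for the neutrophil growth factor G-CSF, ranged from 0.337 to 0.810 CPM in controls and stood at 22.8, 45.3 and 0.542 CPM in SDS libraries 1 to 3. Its log2 fold change was 5.25 ± 0.99 (adjusted p = 0.0507), and it was called without SDS library 3. Lactoferrin (Ltf), which epithelia also secrete, stood at 92.1, 89.6 and 0.542 CPM against a control range of 0.406 to 15.3 CPM, and was not called in either fit. Mmp9 had 130, 288 and 11 counts in SDS libraries 1 to 3 against 6 to 121 in controls, and Retnlg 26, 17 and 2 against 0 to 5. Ly6g was at 0 in every control and had 1, 3 and 0 counts in the SDS libraries, Cxcr2 had a log2 fold change of 0.67 ± 0.49, and Camp had -1.30 ± 0.43. Neutrophils share many of these genes with macrophages, among them Itgam, Ncf1, Cybb, Tyrobp, Fcer1g and Fcgr3. The T cell list of 7 genes stood at 0.627 to 3.24 CPM in controls and 15.7, 14.5 and 2.75 CPM in the SDS libraries. Of its 5 tested genes 1 was called higher (0.623% of all tested genes were). The eosinophil list of 5 genes stood at 0.144 to 0.473 CPM and 1.81, 2.21 and 0.208 CPM, and none of its genes passed the filter. Siglecf (28, 41 and 0 counts in SDS libraries 1 to 3) and Ccr3 (15, 16 and 4) made up most of it. Epx had 0 counts in each SDS library, Prg2 had 2, 1 and 0, and Il5ra had 1, 5 and 1. The B cell list of 5 genes had another order, with 1.49, 2.597 and 11.5 CPM in SDS libraries 1 to 3 against 0.664 to 1.59 CPM in controls. The mast cell list of 5 genes had 22.8, 10.7 and 8.001 CPM, within the control range of 1.14 to 57.7 CPM. The skeletal muscle list of 5 genes stood at 22040 to 30760 CPM in controls. It was below every control in SDS libraries 1 to 3, at 19720, 16290 and 9774 CPM. None of the 5 muscle genes was called (0.425% of all tested genes were called lower). The part of these cells in the member values was not tested.

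**Figure D5:**
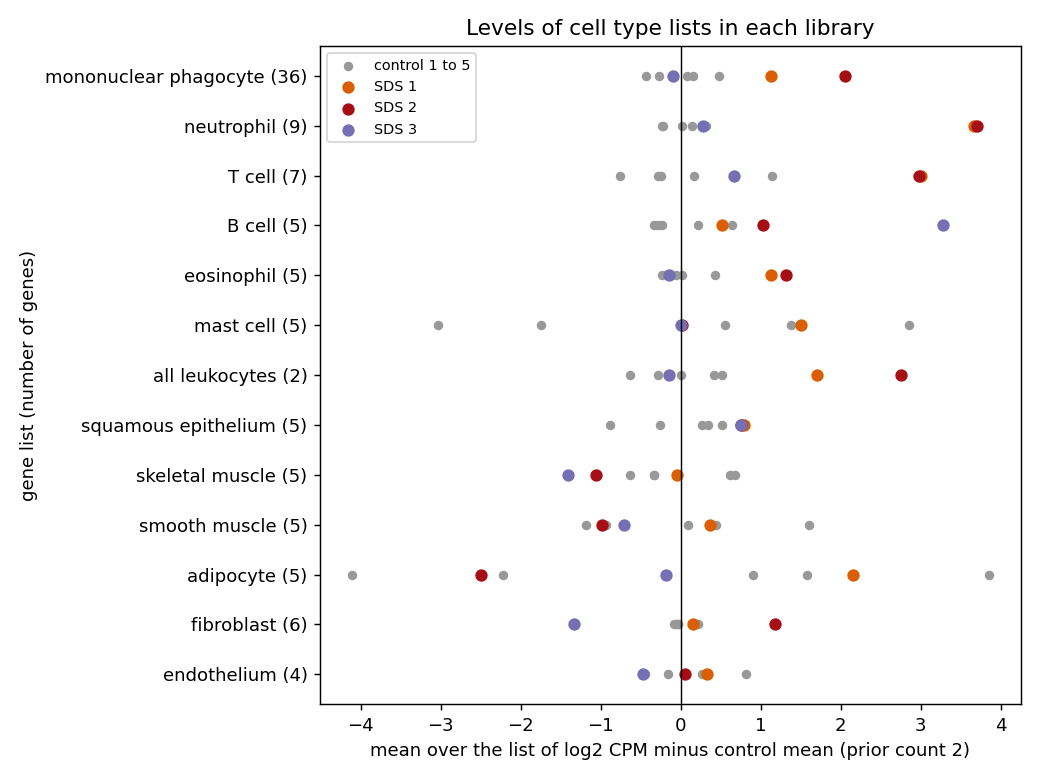
Mean over each gene list of log2 CPM minus the control mean, for the 36 tested members and 12 lists of other cells; grey points are the 5 controls. The mononuclear phagocyte mean is 1.13, 2.06 and -0.10 in SDS libraries 1 to 3, the neutrophil mean 3.67, 3.71 and 0.28, and the B cell mean is highest in SDS library 3 (3.28).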

How the data were processed

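RNA of whole mouse esophagus was measured in 5 control and 3 SDS libraries. The tools listed per the submitters' processing notes are STAR 2.6.1c, Subread, FastQC and bcl2fastq, with the genome build mm10. The strand setting, the annotation release and the handling of multimapped reads were not given in the sources used here. The values deposited by the authors are raw counts per Ensembl gene, 1 table per library. Symbols from a reference table matched 48970 of 49315 identifiers.

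After filterByExpr (at least 10 counts, total 15) and TMM scaling, SDS was tested against control with edgeR 4.0.16 under R 4.3.3 (robust quasi-likelihood fit, two-sided), and p-values were adjusted by Benjamini-Hochberg over 17179 genes, with calls at 0.05. Common dispersion corresponded to 29.3% biological variation. Each SE was obtained from the log2 fold change and its F statistic. CPM use TMM-scaled totals, and log2 CPM a prior count of 2. At these depths 3 counts are 0.101 to 0.136 CPM (counting error only). No library copied another of its group (lowest chi-square per degree of freedom 24.1). The fit was also run on simulated counts, and the outcome is not reported here. Those counts gave all SDS libraries a common mean per gene. The run therefore says nothing of a group in which a library departs as SDS library 3 did.

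The members and lists were chosen with earlier results of these data known. All 37 members are described; of the other lists, called genes (at most 4 a list) and 12 genes taken whatever they showed are named, except that some results are not reported here. Others are marked as chosen after their values were seen. Ratios to Ptprc and promoter motifs were added after the data were seen. Alternatives were other scalings and filters, DESeq2 1.42.0, limma-voom (limma 3.58.1) with and without quality weights, leaving out libraries, and the replicate number as a block.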

Additional observations from a re-analysis of the deposited data

Results flagged for a closer look

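The 5 controls were examined for single libraries far from the rest in 52 member and related genes, and 2 genes were flagged. Chance flags about 1 gene in 20, so 2 of 52 is no excess over that rate. Siglec1 measured 5.20 CPM in control library 4 and 0.996 to 2.01 CPM in the other controls. Xcr1 measured 0.675 CPM in control library 4 and 0.102 to 0.184 CPM in the other controls. Control library 4 also had the highest summed level of adipocyte, mast cell, smooth muscle and endothelium genes; their part was not tested.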

How the results depend on the processing

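With all libraries 0 members were called higher, but 15 were with DESeq2, 22 with limma-voom with quality weights, 26 without SDS library 3 and 32 without both SDS library 3 and control library 4, the last chosen after seeing the data. Leaving out each library in turn gave 0 to 26. The median log2 fold change of members was 1.32 and ran from 0.54 (without SDS library 2) to 1.73 (without SDS library 3), and was 1.82 without SDS library 3 and control library 4. Related genes called higher numbered 1, and 2 with relative log expression size factors, 2 with no filter, 19 with DESeq2, 23 with quality weights, 32 without SDS library 3 and control library 4, and 0 to 24 leaving out each library in turn: Cd207 was not called without control library 1, 2, 3 or 5 or SDS library 2. No member or related gene was called lower with all libraries. Of 608 member values over 17 alternatives 95 were called and 3 had the opposite sign: the Gpnmb log2 fold change was 0.01 without SDS library 1 (range over all alternatives -0.55 to 0.01), and without SDS library 3 and control library 4 the Lgals3 log2 fold change was -0.01 (range to 0.38) and the Zbtb46 log2 fold change 0.14 (range from -0.55). The Csf1 log2 fold change was -0.13 with limma-voom, -0.02 without control library 2, -0.09 without control library 3, -0.04 without SDS library 1 and -0.40 without SDS library 2 (range to 0.46), and the Ccl2 log2 fold change was -0.43 without SDS library 2 (range to 0.95); the cause was not tested. With the replicate number as a block 0 members and 0 related genes were called, and the median was 1.28. No label says whether equal numbers pair the samples. Same-numbered libraries deviated from their group means with correlations of 0.311, -0.006 and 0.307, and only SDS library 3 correlated best with its own number. These correlations cannot decide on pairing, since levels of fat and muscle genes also differed between libraries. Of all tested genes 107 were called higher and 73 lower, and 859 higher with DESeq2. Depth limited Marco, Xcr1, Ly6c2 and Csf2, with few counts in most libraries.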
